A study of Mus musculus with 20 samples.

Results

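The response of the mouse adrenal gland to loss of the clock gene Bmal1 was compared between females and males, gene by gene. For each gene the change with the deletion in males was subtracted from the change in females, that is (Cre-BMAL KO_F minus Cre-CTRL_F) minus (Cre-BMAL KO_M minus Cre-CTRL_M), on log2(value + 1). All 20 of the 20 libraries of the series entered, and 26612 of 47729 genes passed the filter on low values. A positive difference means that the deletion left the gene higher in females, relative to its own-sex controls, than it did in males. It can arise from a rise in females, from a fall in males, or from both.

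RNA was sequenced from whole adrenals in 5 female and 6 male libraries of genotype SCC::Cre_CTRL. Genotype SCC::Cre_BMAL1 KO had 5 female and 4 male libraries. Both genotypes are labelled with the same Cre driver, SCC::Cre. The side-chain cleavage enzyme, P450scc, is encoded by Cyp11a1 and is made in the steroid-producing cells of the cortex. A whole gland also holds medulla, capsule, vessels and blood cells, which do not make it. Control females were aged 1.5 to 3.4 months and KO females 2.4 to 3.4, control males 2.9 to 4.7 and KO males 2.9 to 3.7. Age was thus not balanced over the groups, and only control females 4 and 5 were under 2 months. The labels give neither the control alleles, the exons removed nor the time of day of collection. The labels do not state that each library came from a separate animal, so p-values measure only the spread between these libraries, which may in part be technical.

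BMAL1, encoded by Arntl, pairs with CLOCK or NPAS2 and switches on genes that include its own repressors, the period and cryptochrome genes and the REV-ERB nuclear receptors. The adrenal cortex turns cholesterol into steroid hormones. In mice it also differs by sex, with an inner X-zone that is lost at puberty in males and later in females.

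Recovered reads per library ran from 13421985 to 26742820, and mitochondrially encoded genes took between 7.94% and 12.4% of them. The sex labels matched the libraries, since Xist lay between 5474 and 11840 normalised reads in the female libraries and between 8.30 and 202 in the male ones. Cortex (Cyp11a1, 59643 to 147133; Star, 129731 to 386386) and medulla (Th, 5057 to 13818) were present in every library, while the kidney markers Umod and Slc34a1 were at 0 throughout. The first principal component took 26.4% of the variance and separated the sexes. The second took 6.28% and placed every KO library above every control library, with control female 1 (10.4) close to KO female 4 (12.4). Whole-gene Arntl did not fall in the libraries labelled KO. Its normalised read count was 618 ± 147 in control females and 905 ± 71.8 in KO females, and 663 ± 238 in control males and 923 ± 69.8 in KO males (SD, n = 5, 5, 6 and 4). The sum over the whole gene cannot show the loss of some of its exons, so it checks nothing about the deletion. The difference of its change between the sexes was 0.03 ± 0.27 (log2 ± SE; adjusted p = 0.997 from limma).

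At a Benjamini-Hochberg adjusted p under 0.05 in limma, 8 genes were called for the difference between the sexes, 0.0301% of those tested. All 8 had a positive difference: the proline-degrading enzyme Prodh, the small nucleolar RNA Gm23991, the chloride intracellular channel family member Clic5, the secreted protein Metrnl, the surfactant protein Sftpc, the cell adhesion protein Pcdh7, the guanine nucleotide exchange factor Arhgef37 and the kinase Pim3. No gene was called with a negative difference by limma, against 817 with a negative difference at an unadjusted p under 0.05 (3.07%), 2 called by edgeR and 31 called by DESeq2. The single direction did not hold without the libraries aged under 2 months, control females 4 and 5, where limma called 8 genes, 4 higher and 4 lower. Among those 8 were 3 of the genes above (Prodh, Gm23991 and Metrnl), and the lower ones were Gvin1, Trim12a, Trim5 and Gm15133. Without control female 5 alone it called 10 higher and 6 lower, the lower ones being these 4, Trim30d and Kifc3. Gvin1 and Trim12a, both on chromosome 7, followed the same single libraries, control female 5 and KO male 2, as described below. They are thus not separate results. In both directions together, 1715 genes had an unadjusted p under 0.05 (6.44%), where 1330.6 are expected if no gene differs. Over all genes the median difference was 0.0057 and 50.8% of genes were positive. The median standard error was 0.39. Pim3, the called gene with the largest p, passed with a difference of 1.02 at a standard error of 0.18. A difference of that size would not have passed at the median standard error. A gene that did not pass is thus not shown to change equally in the sexes.

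In whole glands, fewer cells of a type and less RNA per cell cannot be told apart, which holds for every gene below. The 3 genes with the smallest p that had an entry in the RefSeq promoter table are shown with the 250 bases before their annotated start (GRCm38.p6, 5′ to 3′ along the gene). They lie at chr16:18089191-18089440 on the minus strand for Prodh, chr17:44188322-44188571 on the plus strand for Clic5 and chr11:121702177-121702426 on the plus strand for Metrnl. The start is that of RefSeq. For Prodh and Metrnl these bases lie inside the gene spans given below, which are from GENCODE M21 and begin further upstream. Capitals mark matches to 4 motifs, searched on both strands: the E-box CACGTG and its variant CACGTT, to which clock activators of the BMAL1 kind are known to bind, the D-box TTATGNAA, and the nuclear receptor half-site AGGTCA.
Prodh: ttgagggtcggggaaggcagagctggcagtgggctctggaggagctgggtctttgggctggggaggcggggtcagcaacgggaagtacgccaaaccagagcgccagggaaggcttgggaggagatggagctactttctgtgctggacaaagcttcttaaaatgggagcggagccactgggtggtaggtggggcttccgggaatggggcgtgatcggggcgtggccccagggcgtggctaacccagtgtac
Clic5: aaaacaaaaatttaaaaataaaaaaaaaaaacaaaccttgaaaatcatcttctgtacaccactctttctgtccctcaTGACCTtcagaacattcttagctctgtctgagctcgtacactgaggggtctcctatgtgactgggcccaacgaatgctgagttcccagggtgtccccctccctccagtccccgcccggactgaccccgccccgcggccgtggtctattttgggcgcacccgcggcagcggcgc
Metrnl: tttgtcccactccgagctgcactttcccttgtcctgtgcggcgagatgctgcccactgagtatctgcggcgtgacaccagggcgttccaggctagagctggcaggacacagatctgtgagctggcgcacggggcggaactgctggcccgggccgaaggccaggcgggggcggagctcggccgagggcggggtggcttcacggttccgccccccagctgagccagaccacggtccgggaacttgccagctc
The search window ran from 250 bases before to 50 bases after the start. Clic5 held 1 half-site, read here on the opposite strand, beginning 173 bases before the start, and none of the other motifs. The windows of Prodh and Metrnl held none of the 4, and they do not cover the start of the GENCODE M21 span of either gene. Among 32851 promoters of the same length, 7.15% held CACGTG, 4.68% CACGTT, 3.38% TTATGNAA and 16.3% AGGTCA. A match describes letters in this window and is not evidence of binding.

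Prodh, a mitochondrial enzyme that carries out the first step of proline breakdown, had the smallest p (chromosome 16, 18060357 to 18090203, minus strand, GRCm38). Its normalised read counts were 706, 807, 714, 600.5 and 952 in control females and 1337, 922, 823, 1031 and 1062 in KO females. In control males Prodh ran from 382 to 518 (median 469), and KO males were at 257, 237, 259.6 and 278. KO females were on average above control females with some overlap, whereas every KO male lay below every control male. The change was 0.45 ± 0.13 in females, which did not pass (adjusted p = 0.0799), and Prodh fell by 0.79 ± 0.13 in males (adjusted p = 0.0017). The difference was 1.24 ± 0.18 (log2 ± SE; adjusted p = 0.0183). Controls already differed by sex, with females higher by 0.74 ± 0.12, and in KO libraries that gap was 1.98 ± 0.13 (adjusted p = 0.000101 and 9.52e-10).

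Sftpc, the surfactant protein known from alveolar cells of the lung, and Pim3, a serine/threonine kinase of the PIM family, also fell in males and were not called in females. Sftpc (chromosome 14) was read at 36.4, 50.5, 30.6, 35.3 and 46.3 in control females and at 43.9, 52.8, 42.3, 50.5 and 27.6 in KO females. Control males ran from 43.1 to 75.1 (median 64.6) and KO males were at 23.9, 14.8, 17.4 and 17.3. The female groups overlapped throughout, while the 4 KO males were the lowest libraries of all 20. Sftpc fell by 1.71 ± 0.22 in males (adjusted p = 0.000151) and its change in females was 0.11 ± 0.22 (adjusted p = 0.916). The difference was 1.83 ± 0.31 (adjusted p = 0.0331).

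Pim3 (chromosome 15) stands on the clock output list. It was read at 2314, 1999.6, 1405, 1906 and 2119.8 in control females and at 1862, 2091, 1777, 2086 and 1706 in KO females. Control males ran from 3164 to 4772 (median 3898) and KO males were at 1991, 1972, 1881 and 1641. Control males were higher than all other libraries, and KO males fell to the range of the females. Pim3 fell by 1.04 ± 0.13 in males (adjusted p = 8.1e-05), with a change of -0.02 ± 0.12 in females (adjusted p = 0.982), and the difference was 1.02 ± 0.18 (adjusted p = 0.0357). Female minus male was -1.0 ± 0.12 in controls (adjusted p = 2.28e-06) and 0.02 ± 0.13 in KO (adjusted p = 0.922).

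Gm23991, a small nucleolar RNA gene (chromosome 7, 44250450 to 44250542), was called near the limit of detection. It had 0 reads in every control female, and the 5 KO females held 6 reads in all. The 6 control males held 21 reads, and the 4 KO males held 1, in KO male 1. A count of 3 reads was taken as the floor, and most libraries were at or under it, so no fold change is given. The fitted difference was 3.0 ± 0.45 (adjusted p = 0.0183), a value that depends on the pseudocount and ran from 1.03 with a pseudocount of 5 to 7.51 with 0.1. It had no adjusted p from edgeR or DESeq2, after their own filters on low counts.

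**Figure D1:**
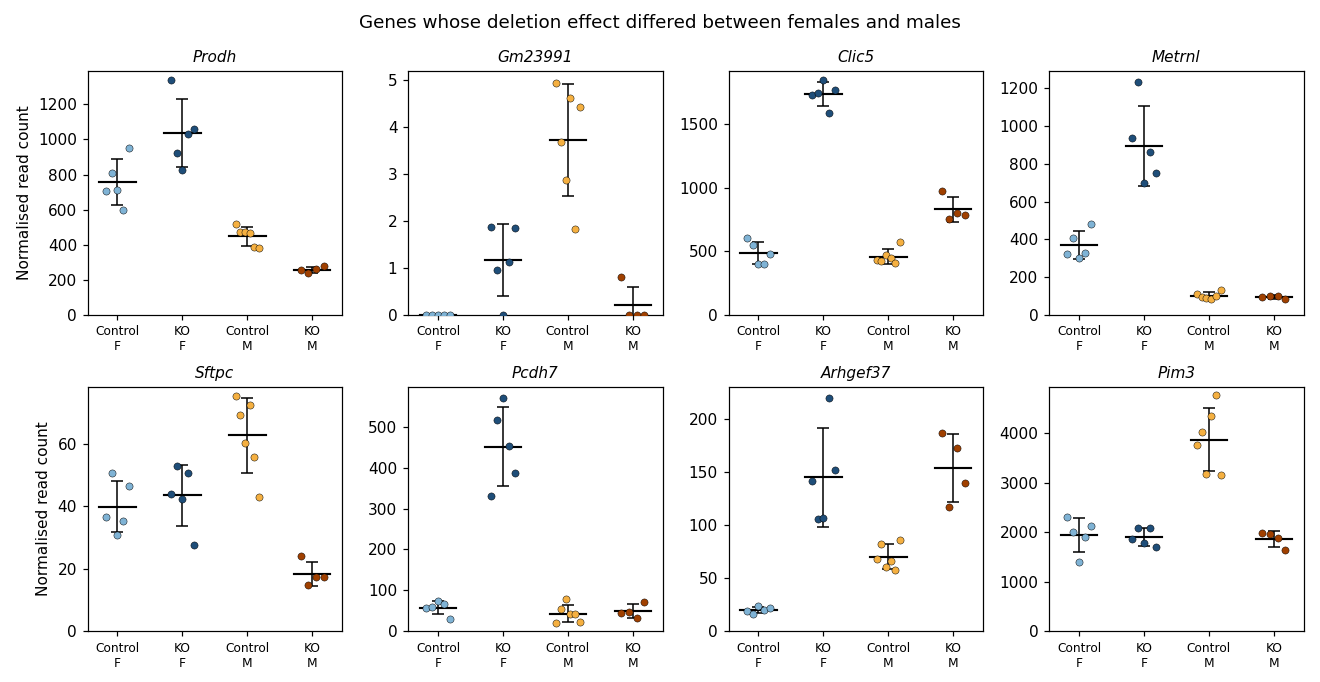
Normalised read count (y axis, linear from 0) of the 8 called genes in each library, by group (x axis: control F, KO F, control M, KO M). Points are libraries, lines are means and bars are SD (n = 5, 5, 6 and 4). KO males lie below control males for Prodh, Sftpc and Pim3, and KO females lie above control females for Clic5, Metrnl, Pcdh7 and Arhgef37.

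Clic5, a member of the chloride intracellular channel family linked to the actin cytoskeleton, rose in both sexes and more in females (chromosome 17, 44188584 to 44280172, plus strand). It was read at 604, 547, 399.7, 402 and 475 in control females and at 1726, 1744, 1847, 1587 and 1772 in KO females. Control males ran from 408 to 569 (median 439) and KO males were at 974, 753, 804 and 783. The control groups of the sexes overlapped, and all 3 ranges of controls, KO males and KO females were separate from one another. The rise was 1.85 ± 0.11 in females (adjusted p = 1.62e-09) and 0.85 ± 0.11 in males (adjusted p = 0.00024). The difference was 1.0 ± 0.16 (adjusted p = 0.0315), so the sexes, 0.07 ± 0.11 apart in controls, were 1.07 ± 0.12 apart in KO.

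Arhgef37, a guanine nucleotide exchange factor, likewise rose in both sexes (chromosome 18). Control females were at 18.7, 16.5, 23.4, 19.9 and 21.6 and KO females at 141, 106, 107, 220 and 152. Control males ran from 57.7 to 86.1 (median 67.2), with KO males at 187, 117, 173 and 139. Control females were the lowest libraries without overlap, and the KO groups of the sexes overlapped. Arhgef37 rose by 2.75 ± 0.20 in females (adjusted p = 2.21e-08) and by 1.12 ± 0.20 in males (adjusted p = 0.0041), a difference of 1.64 ± 0.28 (adjusted p = 0.0333). Female minus male was -1.75 ± 0.19 in controls (adjusted p = 5.79e-07) and -0.11 ± 0.21 in KO (adjusted p = 0.747).

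Metrnl, a secreted meteorin-like protein, and Pcdh7, a protocadherin, rose in females and were not called in males. Metrnl (chromosome 11, 121701544 to 121716306, plus strand) was at 325, 408, 301, 327 and 479 in control females and at 934, 1235, 695, 862 and 749 in KO females. Control males ran from 83.1 to 131 for Metrnl (median 99.3), with KO males at 96.4, 100.1, 101 and 82. Every KO female lay above every control female, and the male groups overlapped throughout. Metrnl rose by 1.27 ± 0.16 in females (adjusted p = 4.91e-05), its change in males was -0.09 ± 0.16 (adjusted p = 0.907), and the difference was 1.37 ± 0.22 (adjusted p = 0.0315).

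Pcdh7 (chromosome 5) had the largest fitted difference of the called genes apart from Gm23991. Control females were at 57.2, 58.7, 73.8, 67 and 29.8 and KO females at 331, 517, 570.4, 452 and 387. Control males ran from 20.8 to 78.3 (median 41.8), with KO males at 45.4, 45.4, 31.5 and 72.3. The KO females stood apart from the other 15 libraries, which overlapped. Pcdh7 rose by 2.99 ± 0.32 in females (adjusted p = 8.37e-06), its change in males was 0.27 ± 0.33 (adjusted p = 0.849), and the difference was 2.72 ± 0.46 (adjusted p = 0.0331).

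For all 8 called genes the KO libraries' deviations from the control mean of their own sex were higher in each KO female than in any KO male. Over all tested genes such a separation, in either direction, was seen for 7.2%, and for 3.75% with females above. The 8 genes were called on these same values, so their separation follows largely from the call and is no separate support. The number of calls moved with single libraries. Without control female 4, or without KO male 2, 3 or 4, limma called 0 genes, with 1725, 1632, 1545 and 1521 genes at an unadjusted p under 0.05. It called 1 without KO female 1, 2 without control male 2, and 5 without each of KO female 3, control male 1 and KO male 1. It called 14 without control female 1 and 16 without each of control female 5 and control male 4. With age as a covariate it called 0 genes, with 1801 at an unadjusted p under 0.05. The 8 genes then had differences from 0.95 for Clic5 to 2.86 for Gm23991 and adjusted p-values between 0.0775 and 0.0876. On the recovered reads edgeR called 10 genes, among them 7 of the 8, and DESeq2 called 83, also with 7 of the 8, while limma-voom called 3, Clic5, Gm23991 and Prodh. The size of each difference moved less than its call: leaving out 1 library at a time, it stayed between 1.15 and 1.33 for Prodh, between 0.93 and 1.08 for Clic5, between 1.24 and 1.47 for Metrnl and between 2.51 and 2.93 for Pcdh7.

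**Figure D2:**
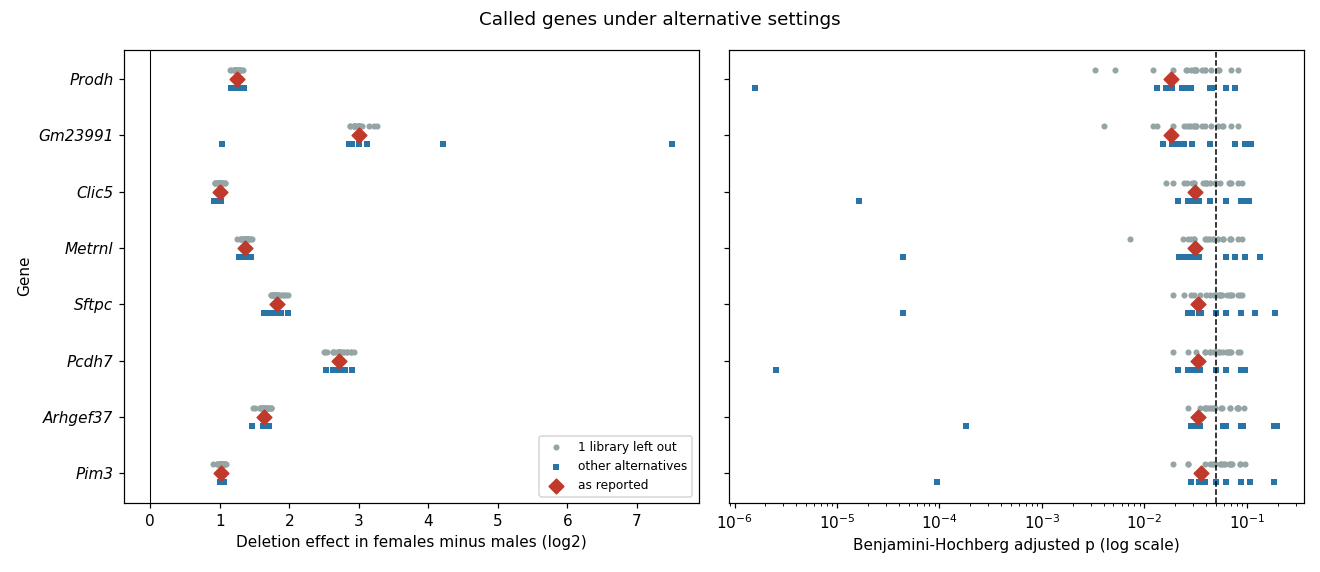
The 8 called genes under each alternative: the difference of deletion effects (left, log2) and its adjusted p (right, log scale, dashed line at 0.05). Red diamonds are the reported values, grey points leave out 1 library and blue squares are the other alternatives; every difference stays positive, while adjusted p-values cross the line for all 8 genes.

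Read against its controls in each sex alone, the deletion called 467 genes in females (1.75% of those tested) and 354 in males (1.33%). In females 298 were higher (1.12%) and 169 lower (0.635%), and in males 203 were higher (0.763%) and 151 lower (0.567%). The 2 lists shared 150 genes, which is 32.1% of the female and 42.4% of the male list, and all 150 had the same direction. Over all 26612 tested genes, 15405 had the same sign in both sexes. Of the 317 genes called in females only, 262 had the same sign in males, and of the 204 called in males only, 174 had the same sign in females. Their median size was 0.67 in the sex of the call and 0.25 in the other sex, for both lists. A call in 1 sex is no test of a difference: of the genes called in females only, 2 were called for the difference (Metrnl, Pcdh7), and of those called in males only, 4 were (Prodh, Gm23991, Sftpc, Pim3). The other 2, Clic5 and Arhgef37, were called in both sexes. Across genes, the female and male changes had a Pearson r of 0.96 over the 150 shared genes, 0.66 over all genes called in females, 0.77 over all called in males and 0.16 over all 26612. These are descriptions, since genes are not independent replicates and calling selects genes with large changes.

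**Figure D3:**
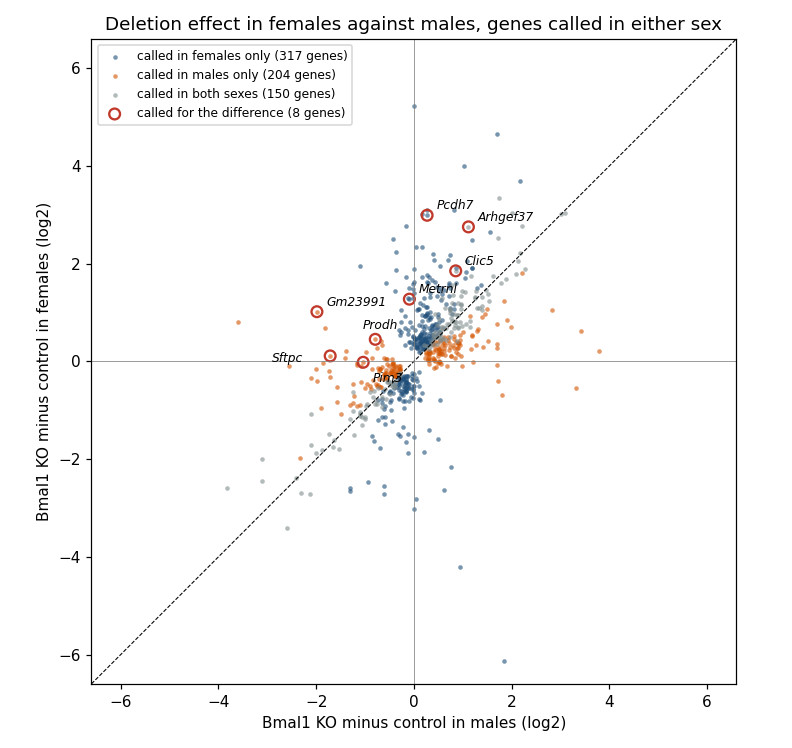
Change with the deletion in females (y axis, log2) against the change in males (x axis, log2) for genes called in females only (317), in males only (204) or in both (150); each point is a gene and the dashed line marks equal change. The 8 genes called for the difference are circled, and all of them lie above the dashed line.

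The genes next in order of p, predicted genes left out, did not pass, and their values are given as descriptions. They include Thrb, the thyroid hormone receptor beta, and Cyp2f2, a cytochrome P450, both of which stand on the X-zone list. That list held both directions, with 4 of 8 members positive and a median of 0.34. By limma, 2 members were higher and 2 lower at an unadjusted p under 0.05. Thrb ran from 1579 to 1985 in control females (median 1949), from 2414 to 3122 in KO females (median 2878), from 471 to 725 in control males and from 407 to 550 in KO males. The female groups did not overlap and the male groups did. Thrb rose by 0.61 ± 0.11 in females (adjusted p = 0.00513), its change in males was -0.27 ± 0.12 (adjusted p = 0.375), and the difference was 0.88 ± 0.16 (adjusted p = 0.0602 by limma and 0.049 by edgeR). Cyp2f2 was at 6798, 3646, 8296, 6169 and 12674 in control females and at 589.6, 989.7, 742, 2451 and 845 in KO females. Male libraries held Cyp2f2 at 16.6 to 61.6 in both genotypes. It fell by 2.82 ± 0.37 in females (adjusted p = 0.000117), with 0.04 ± 0.38 in males and a difference of -2.86 ± 0.53 (adjusted p = 0.0602). The Cyp2f2 level in males was low in both genotypes.

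Acsbg1, an acyl-CoA synthetase, and Kifc3, a motor protein of the kinesin family, also fell in females and were not called in males. Acsbg1 was between 2466 and 4903 in control females and between 504 and 2082 in KO females, against 12366 to 20013 in control males and 15138 to 17821 in KO males. It fell by 1.88 ± 0.26 in females (adjusted p = 0.000245), with -0.12 ± 0.27 in males and a difference of -1.76 ± 0.38 (adjusted p = 0.151). Kifc3 had overlapping levels in the control sexes (3182 ± 188 and 3202 ± 163) and fell by 0.50 ± 0.06 in females to 2255 ± 117 (adjusted p = 0.000104). Its change in males was -0.02 ± 0.07 and the difference -0.48 ± 0.09 (adjusted p = 0.0701 by limma and 0.0415 by edgeR). Pde7a, a phosphodiesterase that breaks down cAMP, fell by 0.78 ± 0.18 in females (adjusted p = 0.0263), with a change of 0.53 ± 0.19 in males (adjusted p = 0.236), with a difference of -1.31 ± 0.26 (adjusted p = 0.0754).

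Among those with a positive difference, Itgb8 (an integrin chain), Klc3 (a kinesin light chain), Sag (the retinal arrestin), Fah (the last enzyme of tyrosine breakdown), Armcx2 (an X-linked armadillo repeat protein) and Bpifb3 were called in females. The differences were 1.56 ± 0.30 for Itgb8, 1.31 ± 0.24 for Klc3, 0.90 ± 0.19 for Sag, 0.96 ± 0.20 for Fah and 0.41 ± 0.09 for Armcx2, with adjusted p-values between 0.0646 and 0.148. Itgb8 rose by 1.72 ± 0.21 there (adjusted p = 4.91e-05), from 449 ± 164 to 1425 ± 262, with 0.16 ± 0.21 in males. Gja1, which encodes the gap junction protein connexin 43, fell by 0.67 ± 0.15 in males (adjusted p = 0.0249), where it went from 2055 ± 384 to 1282 ± 143. In females Gja1 was at 4446 ± 793 in controls and 5972 ± 1118 in KO (0.42 ± 0.15, adjusted p = 0.183), and its difference was 1.09 ± 0.21 (adjusted p = 0.0701). Cst8, Hk2 and Rarres1 had changes of opposite sign in the sexes and passed in neither, with differences of 3.02 ± 0.59, 1.44 ± 0.31 and 2.83 ± 0.63. Hk2, the hexokinase of the first step of glycolysis, was for instance at 439 ± 109 in control females, 716 ± 156 in KO females, 205 ± 61.7 in control males and 119 ± 21 in KO males. Rarres1 was near the limit of detection in females, with 13 reads over the 5 controls and 35 over the 5 KO libraries. Its difference ran from 2.05 with a pseudocount of 5 to 3.69 with 0.1. Bpifb3 was at 0 in all controls and KO males except control female 4 (0.906) and KO male 4 (1.08), and at 2.76 to 18.7 in KO females.

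Gene groups were described with 33 lists, of which 444 of 452 members were tested. A list is described by its counts and its median, beside the all-gene median of 0.0057 and the 50.8% of genes that were positive. Pim3 was the only list member called by limma for the difference. edgeR called Pim3 and Thrb, and DESeq2 called 6 list members, among them Acsbg1, Cyp2f2, Pim3, Pmvk and Thrb. Counts of members at an unadjusted p under 0.05 are to be read against 3.37% of all genes in the positive and 3.07% in the negative direction.

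**Figure D4:**
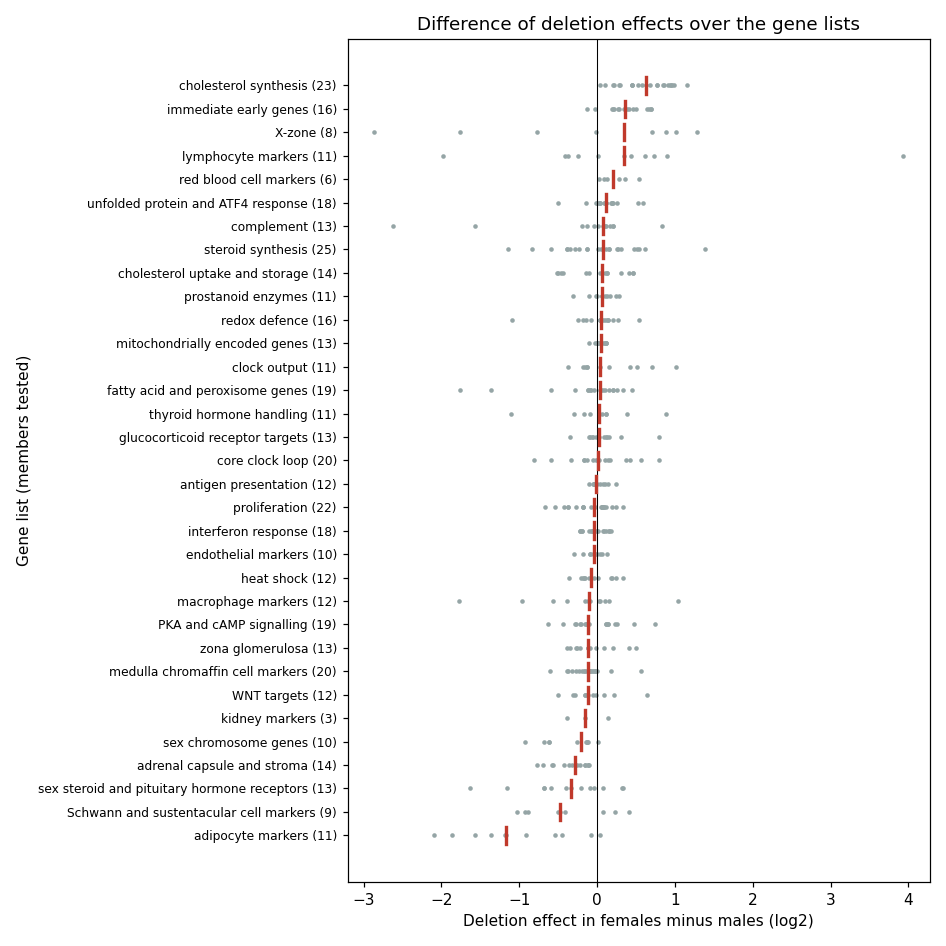
Difference of deletion effects, females minus males (x axis, log2), for every tested member (grey points) and the median (red line) of the 33 gene lists, ordered by median, with the number of tested members in parentheses. Cholesterol synthesis has the highest median, 0.63, and adipocyte markers the lowest, -1.17.

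Cholesterol synthesis genes had the highest median. All 23 tested members had a positive difference, with a median of 0.63 (median change 0.49 in females and -0.17 in males), and 11 had an unadjusted p under 0.05, none in the negative direction. None was called by limma or edgeR and 1, Pmvk, by DESeq2. The median was 0.52 without KO female 1 (22 of 23 positive, 8 at an unadjusted p under 0.05), 0.86 without control female 1 (16 at an unadjusted p under 0.05) and 0.54 with age as a covariate (6 at an unadjusted p under 0.05). For 13 of the 23 the KO females' deviations lay above those of every KO male, against 3.75% of all tested genes. The members were measured in the same libraries, so these are not 13 independent results. The list holds the enzymes from Hmgcs1 through the mevalonate kinases Mvk and Pmvk and the squalene enzymes Fdft1 and Sqle to Dhcr7, and the regulators Srebf2, Scap and Insig1. Pmvk was the 1 member called in a single sex. It was at 473, 355, 280, 342 and 446 in control females and 1362, 630.3, 756, 722 and 814 in KO females, without overlap, and rose by 1.14 ± 0.17 (adjusted p = 0.000434). Males held Pmvk at 269 to 369 in controls and 315 to 417 in KO (0.19 ± 0.17), and the difference was 0.96 ± 0.24 (adjusted p = 0.315).

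Hmgcs1, the enzyme that makes HMG-CoA, was far higher in females and wide in their controls. Control females were at 17756, 12312, 5504, 5247 and 12808 and KO females at 33860.2, 16241, 16606, 17029 and 19405, while males lay between 1562 and 2535 in both genotypes. Control female 1 overlapped the KO females, and KO female 1 was the highest library. The change was 1.04 ± 0.27 in females (adjusted p = 0.0526) and 0.06 ± 0.28 in males, with a difference of 0.99 ± 0.39 (adjusted p = 0.677). The differences of Mvd (1.16 ± 0.39), Sqle (0.96 ± 0.39), Fdft1 (0.84 ± 0.25), Insig1 (0.78 ± 0.27) and Mvk (0.58 ± 0.16) also had an unadjusted p under 0.05 and did not pass. Those of Scap (0.10 ± 0.18) and Dhcr7 (0.04 ± 0.53) were near 0. Of the genes of cholesterol uptake and storage, Vldlr (-0.52 ± 0.14), the cholesterol-esterifying enzyme Soat1 (-0.46 ± 0.18) and the sterol sensor Nr1h3 (-0.44 ± 0.17) had negative differences, and that list's median was 0.07 with 8 of 14 positive. Vldlr rose by 0.49 ± 0.10 in males (adjusted p = 0.0122) and Soat1 fell by 0.61 ± 0.12 in females (adjusted p = 0.0099).

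**Figure D5:**
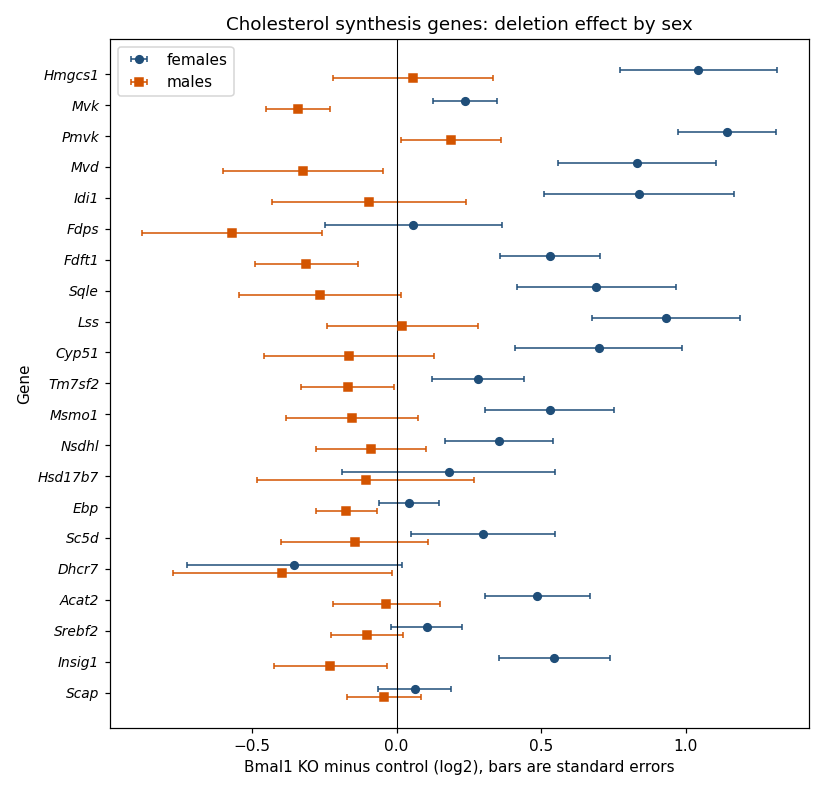
Change with the deletion (x axis, log2, bars are SE) in females (blue circles) and males (orange squares) for 21 of the 23 cholesterol synthesis genes (y axis). The female value lies to the right of the male value for each of the 21, and Pmvk, the 1 gene that passed in females, has the highest female value, 1.14.

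The steroid-making enzymes had a median of 0.07, with 15 of 25 positive and none called for the difference by limma, edgeR or DESeq2 (3 higher and 2 lower at an unadjusted p under 0.05). Cyp11a1, the side-chain cleavage enzyme, fell by 0.71 ± 0.16 in males (adjusted p = 0.0321), from 129875 ± 19544 to 79535 ± 13336. In females it was at 82328 ± 24889.8 in controls and 70435 ± 10655 in KO (-0.19 ± 0.16, adjusted p = 0.727), and the difference was 0.51 ± 0.23 (adjusted p = 0.747). Star, the carrier of cholesterol into the mitochondrion, fell by 0.69 in males (adjusted p = 0.0238) and had -0.53 in females (adjusted p = 0.0815), a difference of 0.16 ± 0.21. Cyp11b1, the last step to corticosterone, had -0.59 ± 0.27 and the steroid reductase Srd5a1 -0.83 ± 0.26, both with an unadjusted p under 0.05 only. Srd5a1 was at 421 ± 123 in control males and 630.5 ± 113 in KO males, against 1143 ± 229 and 979 ± 184 in females. Cyp17a1, an enzyme hardly used in the mouse adrenal, was low in all groups (between 1.92 and 66.3) with 1.38 ± 0.65.

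Clock loop genes changed in both sexes. Of 20 genes, 9 were called in females (5 higher, 4 lower) and 10 in males (6 higher, 4 lower), and none was called for the difference by limma, edgeR or DESeq2, with 3 at an unadjusted p under 0.05. Npas2, the partner paralog of Clock, rose by 3.01 ± 0.15 in females and 3.0 ± 0.16 in males, and the repressor Cry1 by 3.03 ± 0.12 and 3.08 ± 0.13. Their differences were 0.01 ± 0.22 and -0.06 ± 0.18, and both signs turned under some alternatives. The REV-ERB genes fell in both sexes, Nr1d1 by 3.40 ± 0.26 in females and 2.59 ± 0.26 in males, and Nr1d2 by 2.72 ± 0.19 and 2.12 ± 0.19. Their differences, -0.81 ± 0.37 and -0.60 ± 0.27, did not pass (adjusted p = 0.758 and 0.737). Nr1d1 went from 2532 ± 692 to 247 ± 105 in females and from 1955 ± 504 to 323 ± 92.9 in males. Per1, the other one, was at 674 ± 106 and 837 ± 175 in control and KO females and 1959 ± 501 and 1372 ± 286 in control and KO males (0.80 ± 0.26, adjusted p = 0.504). Per1 was called in neither sex. Of the clock output genes besides Pim3, the bZIP repressor Nfil3 rose by 1.26 ± 0.23 in females (adjusted p = 0.00396) with 0.56 ± 0.23 in males, and Dbp fell by 2.69 ± 0.15 and 2.32 ± 0.16.

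Immediate early genes, which respond fast to hormones and stress, had a median of 0.36 with 14 of 16 positive, and 3 with an unadjusted p under 0.05 (Jund, Nr4a1 and Ier3). Their summed level ran from 77110 to 130659 in control males, 72573 to 89341 in KO males, 36618 to 70067 in control females and 53949 to 63417 in KO females. Nr4a1, an orphan nuclear receptor induced by ACTH, was at 23473 ± 7041 in control and 17685 ± 2897 in KO males, and 11044 ± 2956 and 13379 ± 964 in females (0.69 ± 0.28, adjusted p = 0.695). Time of collection is not given, and its part in these values was not tested. None of these genes was called in either sex.

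Several lists of other cell types had medians away from 0 with no member called by limma. The 14 capsule and stroma genes were all negative, with a median of -0.28 and 1 member at an unadjusted p under 0.05, Gli1, the effector of hedgehog signalling (-0.70 ± 0.31). Their summed level overlapped among the groups (10715 to 16465 in control females, 10323 to 12715 in KO females, 7798 to 15834 in control males and 10067 to 16548 in KO males). Adipocyte markers had a median of -1.17 with 1 of 11 positive. Their summed level ran from 6320 to 19643 in control females and 6874 to 13448 in KO females, and from 5108 to 9042 and 6474 to 9165 in control and KO males. That median was -0.0045 with age as a covariate and 0.05 without the libraries aged under 2 months. Lymphocyte markers had a median of 0.34 with 7 of 11 positive, and 3 at an unadjusted p under 0.05, among them the B cell genes Cd79a (0.90 ± 0.37) and Ms4a1 (0.72 ± 0.28). The summed lymphocyte level ran from 179 to 511 in control females, 272 to 413 in KO females, 128 to 233 in control males and 134 to 308 in KO males. Medulla chromaffin markers had a median of -0.12 with 2 of 20 positive, and their summed level overlapped among the groups (120048 to 279764 in control males and 140760 to 210928 in all others). The part of these cell types in the called differences was not tested.

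Some genes with the largest changes within 1 sex followed single libraries. Gvin1 and Trim12a, an interferon-inducible GTPase and a TRIM family gene, lie on chromosome 7 (from 106156556 and 104299894), as does Arntl (from 113207465). Gvin1 was at 409, 140.1, 167, 176 and 0 in control females and at 0 in every KO female and control male, so no fold change is given. Among KO males it was at 0 except KO male 2, at 167. Trim12a showed the same libraries, at 710.4, 660.4, 928 and 694 in control females 1 to 4, 13.4 in control female 5 and 508 in KO male 2, against 6.73 to 43 in all others. Its difference was -5.16 ± 1.35 (adjusted p = 0.333), and -6.29 without control female 5 (adjusted p = 0.00718) and -4.08 without KO male 2 (adjusted p = 0.506). Genetic background is not given in the labels, and its part was not tested. Trim40, another TRIM gene, fell in both sexes. It fell by 2.59 ± 0.52 in females (adjusted p = 0.00877) and fell by 3.83 ± 0.53 in males (adjusted p = 0.000307), with a difference of 1.24 ± 0.74 that did not pass.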

How the data were processed

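Whole adrenals were sequenced in 20 libraries, with RNA from a Direct-zol kit and libraries from a TruSeq kit, per the labels' protocols. The authors deposited a normalised signal per gene and library: reads counted per gene and divided by a size factor. The submitters' processing notes name the builds mm10 and GRCm38 and, among tools, featureCounts, Salmon, DESeq2, FastQC and MultiQC. For the aligner, annotation, strand setting and tool versions the entry is "not given in the sources used here". Within each library, the deposited signal values were whole multiples of 1 step (tolerance 0.001), which gave back the reads.

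Differences were fitted with limma 3.58.1 (R 4.3.3, trend) on log2(value + 1), for 26612 genes at 1 or more in at least 4 libraries, with 4 group means and 1 spread over all 20 libraries. P-values were two-sided and adjusted by Benjamini-Hochberg over all genes tested, with a threshold of 0.05. A fold change on this scale understates the change of low genes. Recovered reads were also tested with edgeR 4.0.16 (quasi-likelihood), DESeq2 1.42.0 and limma-voom. Other alternatives changed the pseudocount, filter, scaling, variance prior, age term, age range and replicate block, and left out each library. The script was tested on simulated data. Of the gene IDs, 47224 were found in GENCODE M21 and 505 were not, and 13350 genes were at 0 in all libraries. Promoters came from RefSeq (GRCm38.p6), where 5 of the 7 called genes looked up had an entry, with chromosome 18 left out.

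Genes named were those called for the difference, then the next by p up to 24, list members that were called or had an unadjusted p under 0.05, and the 5 largest changes called in each sex. Scap and Dhcr7 are given beside them as list members that fall outside this rule, chosen after their values were seen. A few genes that the rule names are not reported here. The members and lists were chosen with earlier results of these data known.

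Same-numbered control and KO libraries had correlated deviations over 0.1 in 2 of 9 pairs, so the numbers were not taken as pairs.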

Additional observations from a re-analysis of the deposited data

Results flagged for a closer look

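With all 20 libraries and no covariate, limma called 8 genes by a test of the difference between the sexes itself. With age as a covariate, or without any 1 of control female 4 and KO males 2, 3 and 4, it called 0. The differences, females minus males on the log2 scale, were 1.24 for Prodh, 1.0 for Clic5, 1.37 for Metrnl, 1.83 for Sftpc, 2.72 for Pcdh7, 1.64 for Arhgef37 and 1.02 for Pim3. Gm23991, near the limit of detection, had a fitted value of 3.0 that depends on the pseudocount.

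Single libraries stood far from the rest of their group, by Dixon's criterion, in 24 of 140 groups over 35 genes. The usual rate of about 1 in 20 is for normally spread values and does not hold here. A group at 0 in all but 1 library always meets the criterion. Among such groups, Bpifb3 in control females and in KO males, Gm23991 in KO males and Gm3555 in control males each held 1 read. The genes had been picked by their differences, so the groups are not independent of the rule. Among KO females, KO female 1 was far out for Kifc3 (2464), 9130204L05Rik (560.6) and Mgam2-ps (634). KO female 4 was far out for Cyp2f2 (2451) and Acsbg1 (2082), and KO female 2 for Lenep (15.4). Among control females, control female 5 was the highest for Fah (2785) and Hk2 (628). Control female 1 was far out for Mgam2-ps (34.3), Gm3555 (25) and Sprr1a (4.16), control female 2 for Gm6206 (8.24) and control female 4 for Bpifb3 (0.906).

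Among KO males, KO male 2 was far out for Gvin1 (167), Trim12a (508) and Sag (121). KO male 4 was far out for Bpifb3 (1.08) and Lenep (9.71), and KO male 1 for Gm23991 (0.797) and Gm6206 (15.9). Among control males, control male 6 was far out for Pde7a (807), Acsbg1 (12366) and Gm44973 (30.9), and control male 2 for Gm3555 (0.922). All of these are normalised read counts.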

How the results depend on the processing

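The 8 called genes kept a positive difference under each alternative that gave them a value, but the number of calls did not hold. The alternatives refit the same libraries in which these genes were called, so the kept sign is no independent support. For the difference between the sexes, DESeq2 called 83 genes (52 higher, 31 lower), limma-voom 3, and limma 0 with age as a covariate (1801 at an unadjusted p under 0.05) and 0 among libraries aged 2.4 to 3.7 months (1665 unadjusted). Leaving out 1 library gave 0 to 16. In females DESeq2 called 913 genes, and limma 264 without the libraries under 2 months and 223 at 2.4 to 3.7 months. In males DESeq2 called 726 and limma 187 at 2.4 to 3.7 months. Leaving out 1 library gave 217 to 484 in males, with 217 without KO male 4 and 229 without control male 2. Some of these fits held fewer libraries, and the cause of the changed counts was not tested.

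With the replicate block, limma called 5 genes for the difference, of which 1 (Prodh) was among the 8. Same-numbered libraries matched best in 4 of 5 female and 0 of 4 male pairs, which is a hint from the data and not from a labelled pairing. In each group the replicate numbers ran from the oldest to the youngest library, so the block is not separate from age. The block turned the sign for Npas2 (-0.022), Per2 (-0.096), Per3 (0.099), Shh (0.083), Wnt4 (0.079), Crym (-0.071) and Arntl (-0.19).

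Of 5040 values recomputed, 62 turned sign, in 12 of 117 named genes, none of them called for the difference. For Npas2 they were -0.0055 (TMM), -0.012 (edgeR), -0.0048 (DESeq2) and -0.081 (without libraries under 2 months). For Bhlhe41 they were -0.0024 (TMM), -0.049 (age covariate) and -0.081 (2.4 to 3.7 months), and for Crym -0.18 (pseudocount 5) and -0.061 (without libraries under 2 months). For edgeR and DESeq2 they were -0.062 and -0.053 for Ptgis and -1.17 and -0.31 for Gm6206. Leaving out 1 library gave -0.12 to 0.12 for Npas2, -0.049 to 0.22 for Per2, -0.35 to 0.0047 for Per3, -0.16 to 0.0038 for Cry1 and -0.16 to 0.16 for Bhlhe41. It gave -0.50 to 0.027 for Shh, -0.24 to 0.030 for Wnt4, -0.25 to 0.066 for Kcnk3, -0.12 to 0.27 for Crym, -0.10 to 0.50 for Ptgis and -0.13 to 0.18 for Arntl.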

Other observations

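Some genes of the immune and hormone receptor lists had an unadjusted p under 0.05 for the difference and did not pass the adjusted test. Mrc1, the mannose receptor of tissue macrophages, fell by 0.59 ± 0.11 in females (limma adjusted p = 0.00457), from 560.2 ± 61.4 to 372 ± 35.1 normalised reads without overlap. In males Mrc1 was at 569.6 ± 69.6 in controls and 564 ± 88.1 in KO, and the difference was -0.57 ± 0.16 (adjusted p = 0.339). Trem2, another macrophage receptor, had a difference of 1.03 ± 0.37 (adjusted p = 0.599), so the macrophage list, with 5 of 12 positive and a median of -0.11, held members of both signs.

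C3, the central complement component, was at 22730.3 to 89954 in control females and 4501 to 23552 in KO females, with males between 55.3 and 489 in both genotypes. Its difference was -2.62 ± 0.79 (adjusted p = 0.422). C4b, an earlier complement component, had 0.84 ± 0.33 (adjusted p = 0.676), and the complement list had 8 of 13 positive. Prlr, the prolactin receptor, was at 9570.1 ± 2257 in control females and 6454 ± 1608 in KO females, against 2223 ± 693 and 2334 ± 369.7 in males (difference -0.68 ± 0.28, adjusted p = 0.691).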
